A study of Mus musculus with 6 samples.

Results

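The genes described here are 9 markers of adipocytes, the fat-storing cells of adipose tissue, measured in RNA from heart tissue of mice: Adipoq, Cfd, Plin1, Cidec, Cidea, Fabp4, Retn, Lep and Car3. They were taken by gene symbol from the table of 55401 genes, and all 9 were found there. RNA-seq was done on hearts of 3 C57BL/6 mice labelled AngII induced (AngII) and 3 C57BL/6 control mice (CON), all aged 6 to 8 weeks. AngII is angiotensin II, a peptide hormone that constricts vessels and raises blood pressure. The dose, route and duration of AngII, the sex of the mice and the part of the heart taken are not stated in the labels, and corynoline, a compound in the series title, was given in no group described here. The labels give no further purpose for the comparison than the series title, which concerns hypertensive heart failure, PPARα and NF-κB. The extraction protocol in the labels speaks of adipose RNA although the tissue is labelled heart, so the tissue was checked first. All 9 cardiomyocyte markers examined were above 1 FPKM in every library, and Myh6, the main myosin heavy chain of the adult mouse heart, stood at 1153 to 3213 FPKM in AngII hearts and 1504 to 2843 FPKM in CON hearts, whereas Adipoq did not exceed 0.296 FPKM in any library. FPKM, fragments per kilobase of transcript scaled to the size of the library, is a level corrected for transcript length and can be compared between genes.

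A mature adipocyte stores triglyceride in 1 or more lipid droplets and releases hormones known as adipokines. Perilipin 1 coats the droplet and controls lipolysis, the CIDE proteins bring droplets together and let them grow, and fatty acid-binding proteins carry fatty acids through the cytosol. Most of these genes are switched on by the nuclear receptor PPARγ with C/EBP factors as the cell matures. Around the heart, fat lies beneath the epicardium and outside the pericardium, and mice have little of it. Fabp4 is also made by capillary endothelial cells and macrophages, Cidea is best known from brown fat, and Car3 is abundant in slow skeletal muscle and liver as well as fat.

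The 9 markers fell into 2 groups by level. Fabp4 and Cidea were plainly present in every library, and their CPM, the scaled counts defined below, overlapped between AngII and CON hearts. The other 7 were near or at 0, under 3 FPKM in every library. Of these, Adipoq, Cfd, Cidec and Car3 stood lower in each AngII heart than in any CON heart. Among all genes tested 9.21% did so, and 17.2% had groups that did not overlap in either direction. Car3 was 3.78-fold lower and Cfd 4.91-fold lower in the fit. Cfd, with no count in AngII replicate 1, entered the test partly through the CON libraries. Adipoq and Cidec, each with no count in 2 of 3 AngII hearts, entered it mainly through the CON libraries and give no firm fold. Retn had no count in any AngII heart, Plin1 overlapped between groups and Lep had no count anywhere. With 3 hearts a group none of the 9 passed the test across all genes (edgeR's quasi-likelihood test, adjusted p between 0.449 and 0.902 for the 7 that could be tested). Over all 16759 genes tested 0.0358% passed, all of them higher in AngII hearts, and 0.0% passed as lower.

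The promoters of 3 of the low members show what sequence lies at genes that are active in fat and were close to silent here. They are the 250 bases before the RefSeq start site, on build GRCm38.p6, each 5′ to 3′ along its gene. Capitals mark matches, on either strand, to CCAAT, to TTGCGCAA (a palindrome bound by C/EBP factors), to TATAAA and to AGGTCA, the half-site of nuclear receptors. A pair of AGGTCA copies with 1 base between them, the direct repeat bound by PPAR with RXR, was also searched and contains the half-site.
Adipoq, chr16:23146286-23146535, plus strand: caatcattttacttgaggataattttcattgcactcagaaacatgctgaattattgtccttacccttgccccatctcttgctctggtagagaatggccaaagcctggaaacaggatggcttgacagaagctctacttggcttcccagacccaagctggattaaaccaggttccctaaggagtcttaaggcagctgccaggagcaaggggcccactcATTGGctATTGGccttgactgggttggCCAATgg
Cfd, chr10:79890603-79890852, plus strand: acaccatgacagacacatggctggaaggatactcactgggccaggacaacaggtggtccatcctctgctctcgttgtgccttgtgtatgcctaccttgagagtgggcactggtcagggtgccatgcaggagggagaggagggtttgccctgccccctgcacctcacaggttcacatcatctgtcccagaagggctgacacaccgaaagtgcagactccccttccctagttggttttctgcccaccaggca
Lep, chr6:29059971-29060220, plus strand: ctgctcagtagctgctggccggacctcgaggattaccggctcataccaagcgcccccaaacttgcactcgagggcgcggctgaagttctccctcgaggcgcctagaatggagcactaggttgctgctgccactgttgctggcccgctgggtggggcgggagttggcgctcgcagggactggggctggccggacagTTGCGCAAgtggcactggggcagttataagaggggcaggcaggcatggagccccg
Adipoq held 3 matches to CCAAT, 2 of them on the minus strand, and 33.8% of the 32851 promoters in the RefSeq table hold 1 or more. Lep held the C/EBP palindrome, which 0.164% of promoters hold, with its first base 55 bases before the start. Cfd held none of the motifs, and neither did the windows of Cidec, Plin1 and Retn, which are not printed here. No window of a marker held TATAAA, which 12.4% of promoters hold, AGGTCA (14.0%) or the PPAR and RXR repeat (0.0335%). These are letter matches in 1 window and say nothing of binding in the heart. The table holds windows for 6 of the 9 markers; Fabp4, Cidea and Car3 are not among them.

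Libraries held 51202916 to 63564869 estimated counts in AngII hearts and 53583726 to 57844780 in CON hearts. Mitochondrially encoded genes took 35.8% to 37.4% of them in AngII hearts and 37.3% to 47.6% in CON hearts, most in CON replicate 1. AngII replicate 1 stood apart from the other 5 libraries, with the smallest scaled library size and 19040 genes with a count, against 20789 and 21064 in AngII replicates 2 and 3 and 19952 to 20890 in CON hearts. It also stood apart in abundant heart genes, in both directions: Cox7a1 was at 1644 FPKM in AngII replicate 1 and at 752 and 871 FPKM in AngII replicates 2 and 3, and Myh6 at 1153 FPKM against 3213 and 3126 FPKM in those libraries. What this had to do with the marker values was not tested. Values with and without that library are given where a result rests on it. The design text counts 3 mice a group. CPM below are counts divided by the scaled library sizes of the test and are compared only within a gene.

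By mean FPKM over the 6 libraries the markers ran in the order Fabp4, Cidea, Cfd, Car3, Cidec, Adipoq, Retn, Plin1 and Lep. Fabp4 and Cidea were separated from the next in line in every library. From Cfd downwards each neighbour's range overlapped the next, so the order among those 7 is not firm. Fabp4 ranked 205 and Cidea 1259 of the 55401 genes by mean FPKM, Cfd ranked 8596 and Adipoq 16467.

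**Figure D1:**
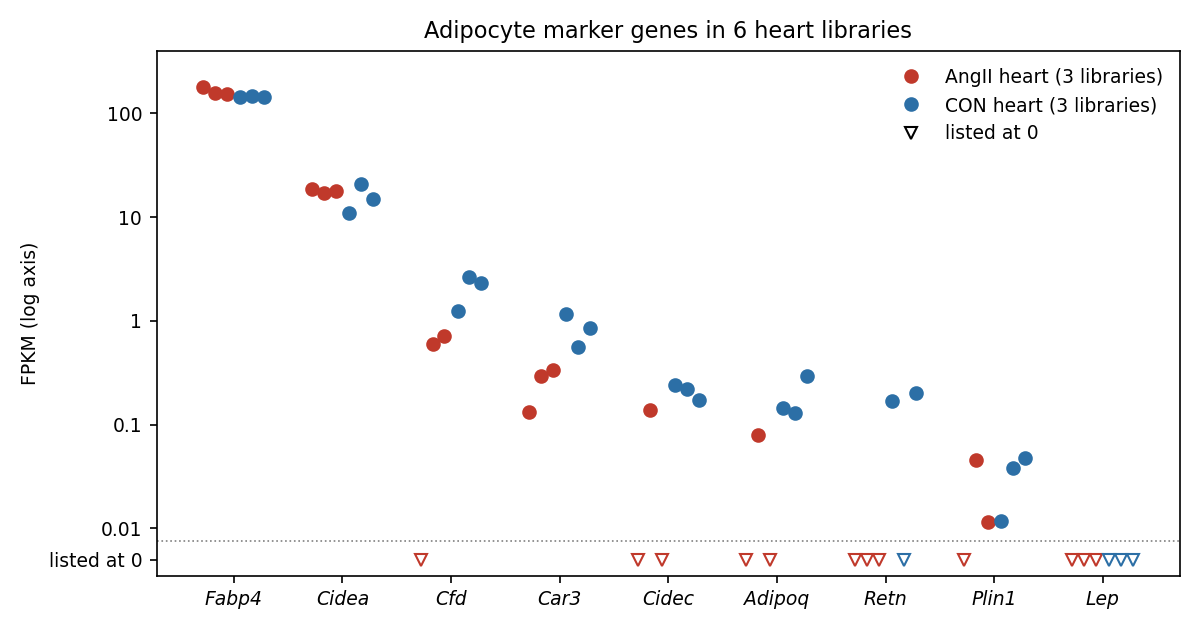
FPKM (log axis) of each adipocyte marker in the 3 AngII and 3 CON libraries, 1 point per library, with open triangles for libraries listed at 0. Fabp4 and Cidea lie above 10 FPKM in every library, the other 7 below 3 FPKM, and Lep is at 0 in all 6.

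Adipokines come first. Adipoq (ENSMUSG00000022878; GRCm38 chromosome 16, 23146536 to 23158028, plus strand) encodes adiponectin, the hormone secreted almost wholly by adipocytes. Its estimated counts were 0, 8 and 0 in AngII replicates 1, 2 and 3, against 13, 12 and 24 in CON replicates 1, 2 and 3, or 0, 0.114 and 0 CPM against 0.285, 0.180 and 0.436 CPM. The AngII hearts all lay below the CON hearts, and no library of either group held more than 24 counts. The fitted log2 change was -2.82 (SE 1.3; unadjusted p = 0.0687, adjusted p = 0.686 by edgeR). Adipoq entered the test through the CON libraries only, since no AngII library reached the filter's minimum, so it could hardly have been anything but lower in AngII hearts.

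Cfd (ENSMUSG00000061780; chromosome 10, 79890853 to 79892655, plus strand) encodes complement factor D, also called adipsin, a serine protease that cleaves factor B in the alternative complement pathway and is secreted in quantity by fat. Its counts were 0, 39 and 47 in AngII hearts, against 72, 155 and 124 in CON hearts. That gave 0.405 ± 0.355 CPM in AngII hearts and 2.05 ± 0.414 CPM in CON hearts (SD, n = 3 each). The groups did not overlap, and AngII replicate 1, with no count, stood below its 2 companions. All 3 CON libraries but only 2 AngII libraries reached the filter's minimum, so Cfd owed its place in the test partly to the CON group. The fitted change was 4.91-fold lower (log2 change -2.29, SE 0.94, unadjusted p = 0.0464, adjusted p = 0.658 by edgeR). Without AngII replicate 1 the log2 change was -1.75 and the adjusted p by edgeR 0.0869, the lowest any setting gave for Cfd.

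Retn (ENSMUSG00000012705; chromosome 8, 3655770 to 3660110, plus strand) encodes resistin, which mouse adipocytes secrete and which blunts insulin action in that species. It had no count in the 3 AngII libraries and 17, 0 and 20 counts in CON replicates 1, 2 and 3. With 1 CON heart also at 0 the groups overlapped. Summed over hearts, and with 3 counts over the AngII group as the limit that a count of 0 allows, Retn was at least 13.6-fold lower in AngII hearts; that bound covers counting error only and not the spread among CON hearts. It failed the filter on low counts. Without that filter its unadjusted p by edgeR was 0.028 and its adjusted p 0.681, and DESeq2 gave an adjusted p of 0.301.

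Lep (ENSMUSG00000059201; chromosome 6, 29060220 to 29073877, plus strand) encodes leptin, the satiety hormone that white fat releases in proportion to its mass. It had 0 counts in all 3 AngII and all 3 CON libraries. A count of 0 allows up to 3 counts a library, or 0.0422 to 0.0690 CPM in AngII hearts and 0.0450 to 0.0657 CPM in CON hearts. No difference was detectable at this depth, and no test was made.

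Lipid droplet proteins follow. Plin1 (ENSMUSG00000030546; chromosome 7, 79720218 to 79732835, minus strand) encodes perilipin 1, the coat of the adipocyte droplet. Its counts were 0, 15 and 4 in AngII hearts, against 4, 12 and 14 in CON hearts. These interleave, and at 0.0454 FPKM or less in AngII hearts and 0.0479 FPKM or less in CON hearts it was the lowest member with any count. Its log2 change was -0.89 (SE 1.14; adjusted p = 0.862 by edgeR).

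Cidec (ENSMUSG00000030278; chromosome 6, 113424634 to 113435760, minus strand) encodes the protein also known as FSP27, which fuses droplets into the large one of white fat. Counts were 0, 18 and 0 in AngII hearts, against 28, 26 and 19 in CON hearts. Only AngII replicate 2 held any among the AngII hearts, the same library that held the 8 counts of Adipoq, and it lay below all CON hearts. The log2 change was -2.30 (SE 1.38; adjusted p = 0.739 by edgeR). All 3 CON libraries but only 1 AngII library reached the filter's minimum, so Cidec too owed its place in the test mainly to the CON group.

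**Figure D2:**
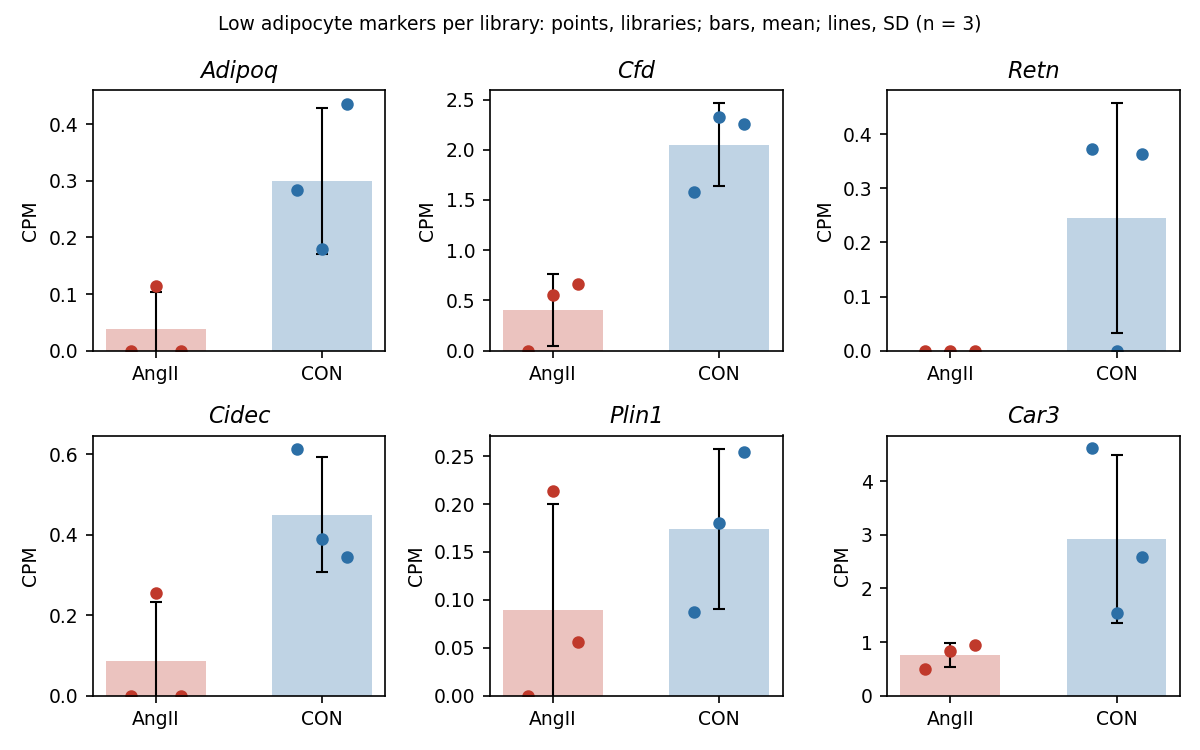
CPM of 6 low adipocyte markers in AngII (left) and CON (right) hearts on linear axes from 0, with a point per library, bars for means and lines for the SD (n = 3; the lower end is cut at 0). Adipoq, Cfd, Cidec and Car3 do not overlap between the groups, while Retn and Plin1 do.

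Cidea (ENSMUSG00000024526; chromosome 18, 67343604 to 67367785, plus strand), a relative of Cidec that marks brown fat, behaved differently. It stood at 18.5, 16.9 and 17.8 FPKM in AngII hearts, against 11.0, 20.6 and 15.1 FPKM in CON hearts. The CON hearts spanned the AngII hearts on both sides. On the CPM scale it averaged 21.5 ± 4.52 in AngII hearts and 18.7 ± 2.71 in CON hearts (SD, n = 3 each), a log2 change of 0.20 (SE 0.20; adjusted p = 0.831 by edgeR). Its 5′ end overlaps B430212C06Rik on the opposite strand, which stayed at or below 0.578 FPKM. Strand use in counting is not stated, so reads of the pair cannot be told apart, but that gene's level was a small part of Cidea's. Ucp1, the uncoupling protein that defines brown fat, had 0 counts in all 3 AngII and all 3 CON libraries, so Cidea was read here beside no detectable Ucp1.

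Fabp4 (ENSMUSG00000062515; chromosome 3, 10204088 to 10208576, minus strand) encodes fatty acid-binding protein 4, also called aP2, the carrier long used as an adipocyte marker. It stood at 179, 158 and 155 FPKM in AngII hearts, against 144, 148 and 145 FPKM in CON hearts. On this scale the AngII hearts were all slightly higher. On the scaled CPM they were 1036, 698 and 671 in AngII hearts, against 874, 628 and 686 in CON hearts, and the groups overlapped. The log2 change was 0.14 (SE 0.24; adjusted p = 0.902 by edgeR), and it was -0.090 without AngII replicate 1, the highest library on both scales. In FPKM the other AngII hearts still lay above all CON hearts without it.

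Car3 (ENSMUSG00000027559; chromosome 3, 14863512 to 14872523, plus strand) encodes carbonic anhydrase 3, a cytosolic enzyme of low hydratase activity that is among the most abundant proteins of mouse fat. It was the low marker with counts in every library: 22, 59 and 67 in AngII hearts, against 211, 103 and 142 in CON hearts. In CPM these were 0.506, 0.839 and 0.942 in AngII hearts, against 4.62, 1.55 and 2.58 in CON hearts. The groups did not overlap, the CON hearts were widely spread, and all 3 AngII libraries reached the filter's minimum, so Car3 did not depend on the CON group to be tested. It was 3.78-fold lower in AngII hearts (log2 change -1.92, SE 0.47), with the smallest p of the members (unadjusted p = 0.00502, adjusted p = 0.449 by edgeR). DESeq2 on the same counts gave an adjusted p of 0.0311, the only call for a member under any setting; by DESeq2 0.951% of 19776 genes were called, 0.405% lower and 0.546% higher.

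**Figure D3:**
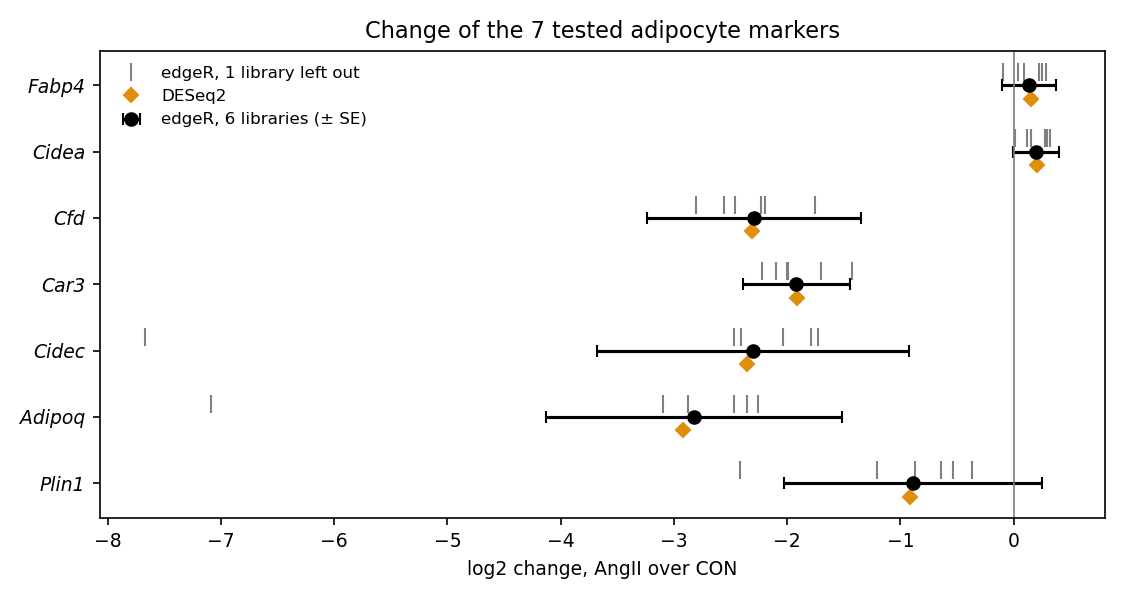
Log2 change of AngII over CON for the 7 markers that passed the filter on low counts, with black points and lines for edgeR on all 6 libraries (± SE), orange diamonds for DESeq2 and grey ticks for edgeR with 1 library left out. Car3 has a change of -1.92 with an SE of 0.47, and the far left ticks of Adipoq and Cidec are the fits without AngII replicate 2, where no AngII count is left.

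Of the 7 members tested, 4 had groups that did not overlap, all lower in AngII hearts, where 9.21% of 16759 tested genes did so in that direction and 17.2% in either. Adipoq and Cidec, which owed their place in the test mainly to the CON libraries, are among the 4. Cfd, at the filter's minimum in 2 AngII and all 3 CON libraries, owed its place to the CON group in part. For these reasons nothing is read from that share. Folds were below 1 for 5 of the 7, and for 49.1% of tested genes. At an unadjusted p under 0.05 stood Car3 and Cfd, both lower. At that level stood 7.51% of tested genes, 3.94% lower and 3.57% higher. An exact two-sided permutation test of CPM over the 20 splits of 6 hearts gave 0.1 for Adipoq, Cfd, Cidec and Car3, the smallest p that 3 against 3 allows. The same exact test gave 0.4 for Plin1 and Retn, 0.5 for Cidea and 0.6 for Fabp4.

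The 7 low markers, a subset drawn after their levels were seen and so described without a test, summed to 0.133, 1.16 and 1.06 FPKM in AngII replicates 1, 2 and 3 and to 2.97, 3.60 and 3.87 FPKM in CON replicates 1, 2 and 3. In every library Cfd and Car3 together gave most of that sum, and Lep gave none. Every AngII heart lay under every CON heart, and AngII replicate 1, where Car3 gave the whole sum, was the lowest. CON replicate 1 had the second smallest scaled library and the second fewest genes with a count. It held the highest Car3 and Cidec CPM of all 6, and the lowest Cfd (1.58 CPM) and Plin1 (0.0875 CPM) among CON hearts. What library size had to do with these values was not tested. In bulk tissue fewer cells of a type and less RNA per cell cannot be told apart.

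Markers of other tissues were read beside these values. Of the 10 mesothelial and epicardial markers, 6 were tested and all had log2 changes below 0, with 2 at an unadjusted p under 0.05, 0 past the adjusted threshold and Upk1b at 0 everywhere. The 10 genes summed to 1.17 to 1.59 FPKM in AngII hearts and 1.11 to 3.32 FPKM in CON hearts. CON replicate 3 was the lowest of all for these, at 1.11 FPKM, close to AngII replicate 1 at 1.17 FPKM. All 9 cardiomyocyte markers had log2 changes above 0 (median 0.28), 1 at an unadjusted p under 0.05 and 0 past the adjusted threshold. They summed to 19100 to 20461 FPKM in AngII hearts and 10989 to 17054 FPKM in CON hearts. The sums did not overlap and lay in the opposite order to the low fat markers. That gap rested on Mb, at 6635, 4930 and 5144 FPKM in AngII hearts, against 1705, 2730 and 4329 FPKM in CON hearts. Without Mb the sums overlapped, though Tnni3 and Pln also stood higher in FPKM in each AngII heart than in any CON heart. All 8 red blood cell markers had log2 changes below 0, 7 at an unadjusted p under 0.05 and 0 past the adjusted threshold. They summed to 604 to 640 FPKM in AngII hearts and 1132 to 2012 FPKM in CON hearts, and DESeq2 called 6 of the 8 lower, among them both alpha-globin genes, whose reads cannot be told apart with certainty. Atrial markers, with 5 of 8 tested and all 5 log2 changes above 0, 2 of them at an unadjusted p under 0.05 and 0 past the adjusted threshold, summed to 9.82 to 11.2 FPKM in AngII hearts and 6.86 to 8.43 FPKM in CON hearts. The largest part of that sum in every library was Stard10, at 8.01, 4.41 and 5.31 FPKM in AngII hearts, against 5.05, 5.86 and 5.46 FPKM in CON hearts. Stard10 overlapped between the groups, and without it the atrial sums overlapped too. Of the atrial markers, DESeq2 called Myl4, the atrial essential myosin light chain, higher (log2 change 1.57, adjusted p = 0.00102). It stood at 0.533 to 0.959 FPKM in AngII hearts and 0.228 to 0.275 FPKM in CON hearts. Of 7 Schwann cell markers 6 were tested, 2 with log2 changes above 0 and 4 below (median -0.54), with 2 lower at an unadjusted p under 0.05 and 0 past the adjusted threshold. Their sum, mostly Pmp22, was 7.91 to 15 FPKM in AngII hearts and 7.59 to 12.2 FPKM in CON hearts. Thymus markers stayed at or below 0.454 FPKM in AngII hearts and 0.403 FPKM in CON hearts, with Rag1, Dntt and Ptcra at 0 throughout. The part that these tissues had in the fat marker values was not tested.

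**Figure D4:**
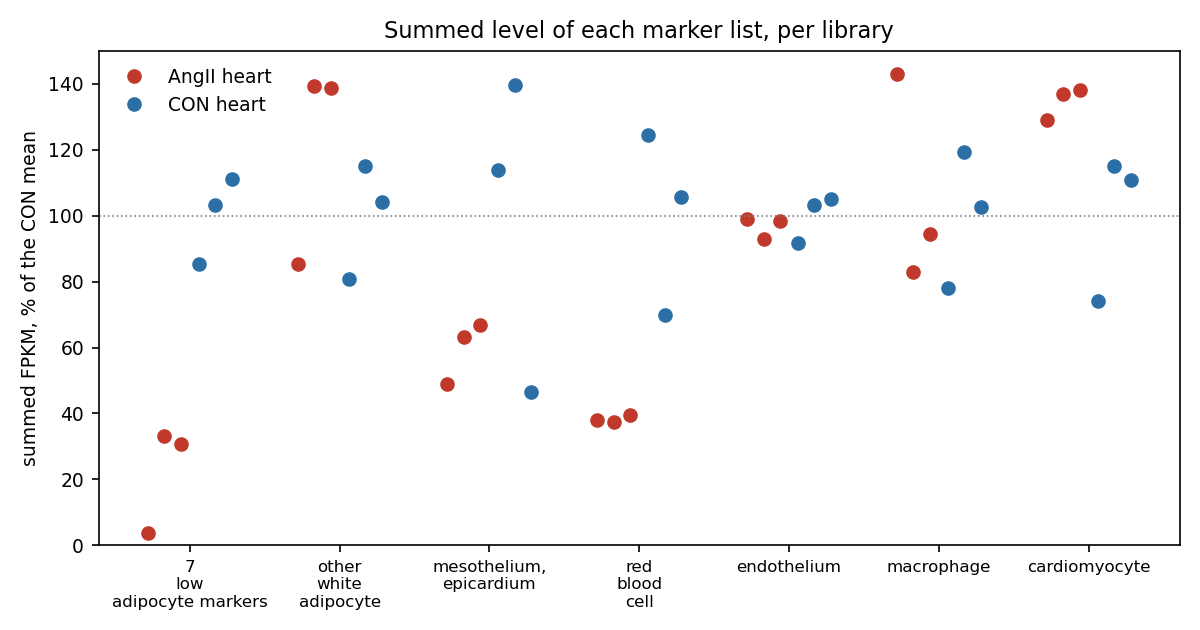
Summed FPKM of 7 marker lists in each AngII (left) and CON (right) library as a percentage of that list's CON mean, on a linear axis from 0. Cfd and Car3 give most of the sum of the low adipocyte markers. The 7 low adipocyte markers and the red blood cell markers do not overlap between the groups and lie lower in AngII hearts. The cardiomyocyte markers do not overlap either and lie higher in AngII hearts, a gap that rests on Mb, while the mesothelial markers overlap.

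Cells that share a marker with fat were examined for the members concerned. The 18 endothelial markers, all above 1 FPKM in every library, had 5 log2 changes above 0 and 13 below (median -0.28), with 5 lower at an unadjusted p under 0.05 and 0 past the adjusted threshold. They summed to 478 to 510 FPKM in AngII hearts and 471 to 541 FPKM in CON hearts. Among them Pecam1, an adhesion molecule of endothelial junctions, stood at 13.9 to 16.9 FPKM in AngII hearts and 15.9 to 21.4 FPKM in CON hearts. DESeq2 called Kdr, a VEGF receptor of endothelial cells, lower (log2 change -0.76, adjusted p = 0.0263). The part of endothelial cells in the marker values was not tested. Of the 13 macrophage markers 5 had log2 changes above 0 and 8 below (median -0.08). At an unadjusted p under 0.05 by edgeR there was 1, lower, and 0 passed the adjusted threshold. Their sum, mostly Lyz2, C1qa and C1qb, was 156 to 269 FPKM in AngII hearts and 147 to 225 FPKM in CON hearts. It was highest in AngII replicate 1. Lyz2, C1qa, C1qb, C1qc and Cd14 had their highest FPKM in that library, and Cd68, Itgam, Fcgr1, Cd163 and Ctss their lowest. The part of macrophages in the marker values was not tested. Fat progenitor and fibroblast markers summed to 83.7 to 142 FPKM in AngII hearts and 117 to 135 FPKM in CON hearts. Skeletal muscle, a source of Car3, had Myh2, Myh8, Pvalb and Myog at 0 in all libraries. Its list summed to 16.0 to 27.2 FPKM in AngII hearts and 10.5 to 15.7 FPKM in CON hearts, nearly all of it Myl1. On this scale each AngII heart was higher than any CON heart. In CPM Myl1 overlapped, at 67.0, 29.5 and 29.2 in AngII hearts against 25.3, 26.2 and 30.9 in CON hearts. What this had to do with Car3 was not tested.

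Other genes of white adipocytes gave no common direction. Of 35, 31 were tested. AngII hearts were the higher side for 19 and the lower side for 12, and the median of their log2 changes was 0.060 (0.01 over all genes tested). None passed edgeR's adjusted threshold; at an unadjusted p under 0.05 there were 4 on the higher side and 3 on the lower side. Pparg, the master regulator of fat cell formation, stood at 3.68 ± 0.308 FPKM in AngII hearts and 3.87 ± 0.377 FPKM in CON hearts (SD, n = 3 each). Cebpa, its partner, was at 1.07 ± 0.174 FPKM in AngII hearts and 1.41 ± 0.202 FPKM in CON hearts (log2 change -0.47, SE 0.20, adjusted p = 0.67 by edgeR). Lipe, the hormone-sensitive lipase, gave a log2 change of 0.06 (SE 0.20, adjusted p = 0.947 by edgeR). Other genes known from fat differed in level. Adrb3 and Lgals12 had no count in any AngII heart and at most 0.0573 FPKM in CON hearts, and Slc7a10 had counts in AngII replicate 3 only. Adig, Mrap and Trarg1 were detected in all 6 libraries. Adig, a small adipocyte protein, stood at 1.03 to 1.38 FPKM in AngII hearts and 0.398 to 0.712 FPKM in CON hearts, higher in each AngII heart than in any CON heart (log2 change 1.05, SE 0.36, adjusted p = 0.583 by edgeR).

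Within this list G0s2 had the smallest p. It encodes the inhibitor of adipose triglyceride lipase and stood at 12.9 ± 1.19 FPKM in AngII hearts and 26.6 ± 7.80 FPKM in CON hearts, with no overlap (log2 change -1.03, SE 0.21, adjusted p = 0.343 by edgeR). DESeq2 called it lower (adjusted p = 0.0226), and edgeR did so without AngII replicate 1 (adjusted p = 0.0456). Dgat2, which makes triglyceride from diglyceride, lay the other way, at 66.1 ± 18.7 FPKM in AngII hearts and 39.9 ± 5.08 FPKM in CON hearts (log2 change 0.65, SE 0.17, adjusted p = 0.471 by edgeR), and was called higher by edgeR without AngII replicate 1 (adjusted p = 0.0457). Rbp4, the retinol carrier secreted by liver and fat, was chosen after its values were seen. Its levels were 0.298, 0.114 and 0.108 FPKM in AngII hearts, against 3.01, 0.214 and 2.69 FPKM in CON hearts. It was high in the same CON hearts, replicates 1 and 3, that held the Retn counts, and CON replicate 2 lay within the AngII range. Fabp1, the liver form of the fatty acid carrier, had 7.45, 0 and 3.79 FPKM in CON replicates 1, 2 and 3. It was at 0 FPKM in every AngII heart. What liver transcripts had to do with the Rbp4, Retn or Car3 values was not tested. DESeq2 called Rbp4 lower (adjusted p = 0.0158), and edgeR did not (adjusted p = 0.529).

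Brown and beige fat genes had 9 of 18 members tested, 6 log2 changes above 0 and 3 below, and 0 at an unadjusted p under 0.05. Their summed FPKM is set by Cox7a1 and Cox8b, respiratory chain subunits that heart muscle makes as well. Ebf2, a factor of brown fat precursors, stood at 0.173 ± 0.132 FPKM in AngII hearts and 0.394 ± 0.067 FPKM in CON hearts (log2 change -1.23, SE 0.56, adjusted p = 0.678 by edgeR). Ppargc1a, the coactivator of mitochondrial genes, gave a log2 change of 0.46 (SE 0.24, adjusted p = 0.704 by edgeR).

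In FPKM, the adiponectin receptors were far more abundant than the hormone's own transcript. Adipor1 and Adipor2, the adiponectin receptors, stood at 14.1 ± 2.66 and 8.48 ± 1.90 FPKM in AngII hearts and at 14.9 ± 1.99 and 7.81 ± 0.627 FPKM in CON hearts. Cdh13, the T-cadherin that holds adiponectin on cell surfaces, gave 9.52 ± 1.47 FPKM in AngII hearts and 7.80 ± 1.31 FPKM in CON hearts (log2 change 0.24, SE 0.12, adjusted p = 0.706 by edgeR). Lepr, the leptin receptor, was at most 0.202 FPKM in AngII hearts and 0.180 FPKM in CON hearts. Tlr4, reported as a receptor for resistin, had the smallest p of the 6 (log2 change 0.72, SE 0.20, unadjusted p = 0.00904, adjusted p = 0.487 by edgeR). Of the 6, 3 had log2 changes above 0 and 3 below, and none passed the adjusted threshold.

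Among relatives of the members, Fabp3, the heart form of the carrier, stood at 2407 to 4125 FPKM in AngII hearts and 1987 to 3012 FPKM in CON hearts, well above Fabp4 in each. Its log2 change was 0.40 (SE 0.18, adjusted p = 0.675 by edgeR). Fabp5, the epidermal form, was at 9.34 ± 2.59 FPKM in AngII hearts and 10.1 ± 0.362 FPKM in CON hearts. Fabp7, the brain form, was at 0.204, 0.150 and 0 FPKM in AngII hearts, against 0, 0.143 and 0 FPKM in CON hearts. In the droplet families, 6 of 8 log2 changes were above 0 and none passed the adjusted threshold. Plin3 stood at 22.8 ± 4.15 FPKM in AngII hearts and 15.8 ± 2.93 FPKM in CON hearts (log2 change 0.49, SE 0.13, adjusted p = 0.471 by edgeR). Fitm1, which helps form droplets in muscle, gave a log2 change of 0.86 (SE 0.36, adjusted p = 0.658 by edgeR). Plin4, a droplet protein of both fat and muscle, was at 15.4, 52.4 and 55.1 FPKM in AngII hearts, against 17.6, 25.8 and 9.20 FPKM in CON hearts, with AngII replicate 1 inside the CON range.

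Among carbonic anhydrases 11 of 15 were tested, 6 with log2 changes above 0 and 5 below. Car8 had the smallest p among the relatives of Car3, at 3.30 ± 0.0633 FPKM in AngII hearts and 5.09 ± 0.651 FPKM in CON hearts (log2 change -0.65, SE 0.17, adjusted p = 0.471 by edgeR). Car14, a membrane-bound form, gave a log2 change of 0.38 (SE 0.28, adjusted p = 0.769 by edgeR), and without AngII replicate 1 edgeR called it higher (adjusted p = 0.0463) and Car8 lower (adjusted p = 0.0440). Of the alternative complement pathway around factor D, C3, the central component, stood at 14.1 ± 1.72 FPKM in AngII hearts and 22.9 ± 6.49 FPKM in CON hearts. Its log2 change was -0.73 (SE 0.15, adjusted p = 0.337 by edgeR), and DESeq2 called it lower (adjusted p = 0.0254). Cfb, the factor B that factor D cleaves, lay the other way, at 0.827 ± 0.148 FPKM in AngII hearts and 0.311 ± 0.240 FPKM in CON hearts (log2 change 1.45, SE 0.46, adjusted p = 0.538 by edgeR). Retnla, a resistin relative of macrophages, stood at 2.97 ± 0.581 FPKM in AngII hearts and 4.83 ± 0.193 FPKM in CON hearts (log2 change -0.72, SE 0.31, adjusted p = 0.664 by edgeR). Retnlg, another relative, gave a log2 change of -0.93 (SE 0.65, adjusted p = 0.766 by edgeR).

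The genes whose pattern over the 6 libraries was most like that of the members were looked for among 9422 genes with a mean of at least 1 FPKM. The measure was Pearson's r with the mean centred log2 CPM of the 7 tested members, and the 8 highest were Neo1 (r = 0.997), Adamts7, Sema4d, Mxra8, Nprl2, Klhl5, Selenbp2 and B4galt3 (r = 0.984). With so many genes and 6 libraries, high values of r arise readily, and no p is given. Neo1, a receptor for netrins and repulsive guidance molecules, stood at 7.34, 15.9 and 10.3 CPM in AngII hearts, against 24.9, 21.0 and 25.8 CPM in CON hearts. Selenbp2, a selenium-binding protein whose reads may be shared with its close paralog Selenbp1, had 0.138, 2.59 and 0.422 CPM in AngII hearts, against 7.05, 3.42 and 4.33 CPM in CON hearts. Both placed AngII replicate 1 lowest and AngII replicate 2 nearest to the CON hearts, the order that the members' mean also had. Both were picked for likeness to that mean, so the shared order follows from the choice. None of the 8 passed edgeR's adjusted threshold.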

How the data were processed

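Poly(A) RNA of 6 mouse hearts was sequenced as paired-end libraries, per the labels. The submitters' processing notes name Bowtie 0.12.2, HISAT2 2.0, StringTie 1.3.0 and the build mm8, without roles; the table's coordinates equal those of GENCODE M21 on GRCm38 for 94.2% of the 55141 IDs found in both. FPKM values are the authors' own, and 0.0001 FPKM, their stand-in for no reads, was read as 0. The authors' estimated counts, deposited as whole numbers, were tested with edgeR 4.0.16 (TMM scaling, filterByExpr, quasi-likelihood, two-sided, Benjamini-Hochberg over 16759 genes, threshold 0.05) in R 4.3.3. SEs were derived from the test statistic. DESeq2 1.42.0 and limma 3.58.1 on log2 FPKM were alternatives, and edgeR was tested on simulated data. Counts have no molecular identifiers, so limits from 0 cover counting error only.

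Members, lists and tests were chosen with earlier results of these data known. Named were all members, a few genes set with each list and the 8 genes of most similar pattern. Also named were the 2 smallest p of each list (any called gene first), with values mainly for the fat-related lists. Rbp4, Fabp1, Cebpa, Plin4, Adrb3, Lgals12, Slc7a10, Cox7a1, Cox8b, Adig, Mrap, Trarg1, Pmp22 and markers named as 0 were added after their values were seen. So were the macrophage genes named. Lists held 215 genes, all found. Replicate numbers were not treated as pairs. Chi-square per degree of freedom within groups was 34.1 to 483. Alternatives covered scaling, filters, pseudocounts, mitochondrial genes, a block and each library left out.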

Additional observations from a re-analysis of the deposited data

How the results depend on the processing

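Of the 9 markers, 0 were called in the fit on all 6 libraries and 1, Car3, by DESeq2 (log2 change -1.91, adjusted p = 0.0311). The signs of Adipoq, Cfd, Cidec, Plin1, Car3 and Cidea were the same under every alternative run, and Fabp4 turned to -0.090 without AngII replicate 1. Without 1 library the log2 change ran from -7.09 to -2.26 for Adipoq, -7.67 to -1.72 for Cidec, -2.80 to -1.75 for Cfd, -2.22 to -1.43 for Car3, -2.42 to -0.37 for Plin1, 0.015 to 0.32 for Cidea and -0.090 to 0.29 for Fabp4; the far ends of Adipoq and Cidec come from AngII groups left at 0 and are no bounds. Over all genes 6 were called, against 12 with no filter, 188 by DESeq2, 3 and 2 by limma with pseudocounts of 0.5 and 0.1, 1 by limma with no filter, and 0 to 129 without 1 library. With the replicate block 0 genes were called. The deviations of same-numbered libraries correlated at 0.078, 0.11 and -0.037. AngII replicate 3 correlated better with CON replicate 2 than with its own number. With so few libraries a group these values cannot exclude pairing, and the numbers were used only as names. Of the other listed genes 0 were called, against 11 by DESeq2 and 0 to 6 without 1 library. The limma filter left out Adipoq, Cidec and Plin1. The 129 calls came without AngII replicate 1, 93 higher and 36 lower, and the causes of these differences were not tested. Adipoq and Cidec held at most 18 counts in any AngII library and at most 28 in any CON library, so their values rest on few reads.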
